A study of Mus musculus with 14 samples.

Results

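The genes described here encode the aminoacyl transfer RNA synthetases of the mouse. They were chosen by name: 20 symbols of the cytosolic enzymes and 16 symbols of the mitochondrial enzymes, 36 in all, were looked up among the 55487 genes of the deposited count table. Of these, 35 had a row, 19 cytosolic and 16 mitochondrial, and Mars, the cytosolic methionyl enzyme, was not analysed here. All 35 had enough reads to be tested across the series and in epithelial cells, and 34 in macrophages, where Vars2 was below the filter on low counts.

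RNA was sequenced from cells sorted from the colon of mice in which both copies of Tsc2, a brake on the growth kinase mTORC1, carry flanking loxP sites. In the cre mice (Tsc2fl/fl Lyz2cre/+) the recombinase was driven by 1 copy of the Lyz2 gene, which is active in macrophages and other myeloid cells, so that Tsc2 was to be deleted in those cells, whereas the wt mice (Tsc2fl/fl Lyz2+/+) carried the floxed Tsc2 alone. The 4 groups were cre macrophages of the lamina propria (3 libraries, all from males), wt macrophages (3 libraries, 1 male and 2 females), cre epithelial cells positive for EpCAM and CD44 (4 libraries, 3 males and 1 female) and wt epithelial cells of the same sort (4 libraries, 2 males and 2 females). All 4 groups carried the floxed Tsc2, no group carried cre without it, and the age of the animals is not given in the sources used here. Libraries are called below by genotype and the number in their title. The number is also written as a mouse, although the labels do not state that it is an animal. The titles carry 4 wt numbers whereas the series text states 3 wt mice, so that 2 wt epithelial libraries may share an animal, and p-values would then be too small.

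Each aminoacyl transfer RNA synthetase joins an amino acid to its transfer RNA, the step that lets the ribosome read the genetic code. The cytosol and the mitochondrion use mostly separate enzymes, all encoded in the nucleus, and in the cytosol several of them sit together in a multi-synthetase complex held by the scaffold proteins Aimp1, Aimp2 and Eef1e1. Many of the cytosolic genes are targets of ATF4, a transcription factor that is made when amino acids run short and that mTORC1 also raises.

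Total counts ran from 7269103 to 9364551 per library. The summed level of 8 macrophage markers was between 5572 and 12240 CPM (counts scaled to the size of the library) in macrophage libraries and between 27.3 and 93.5 CPM in epithelial libraries. Epithelial markers (8 genes) summed to between 41.8 and 207 CPM in macrophage libraries and between 8165 and 11320 CPM in epithelial libraries, so that the defining markers matched both labels. B and plasma cell genes (8) summed to between 2902 and 11850 CPM in macrophage libraries. Tsc2 itself had 24.1, 29.0 and 31.9 CPM in cre macrophages, against 37.0, 34.1 and 22.9 CPM in wt macrophages, a log2 difference of -0.14 (SE 0.23, edgeR adjusted p = 0.86). Which exons were floxed is not stated in the labels, and reads of the remaining exons are counted too, so this value does not check the deletion. Lyz2, the gene that carries the cre, differed by -0.22 in macrophages (SE 0.15, edgeR adjusted p = 0.634).

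Per length, the median cytosolic gene was more abundant than the median mitochondrial gene in all 4 groups, whereas Lars2, the mitochondrial leucyl gene, exceeded every cytosolic gene. The median cytosolic gene had 15.0 FPKM in cre macrophages, 17.1 in wt macrophages, 26.6 in cre epithelial cells and 21.6 in wt epithelial cells (FPKM, read counts scaled to the length of the gene and the size of the library, as the authors deposited them). The median mitochondrial gene other than Lars2 had 2.68 FPKM in cre macrophages, 3.52 in wt macrophages, 5.44 in cre epithelial cells and 5.28 in wt epithelial cells. The plot of levels by group shows how the sets lie beside each other.

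**Figure D1:**
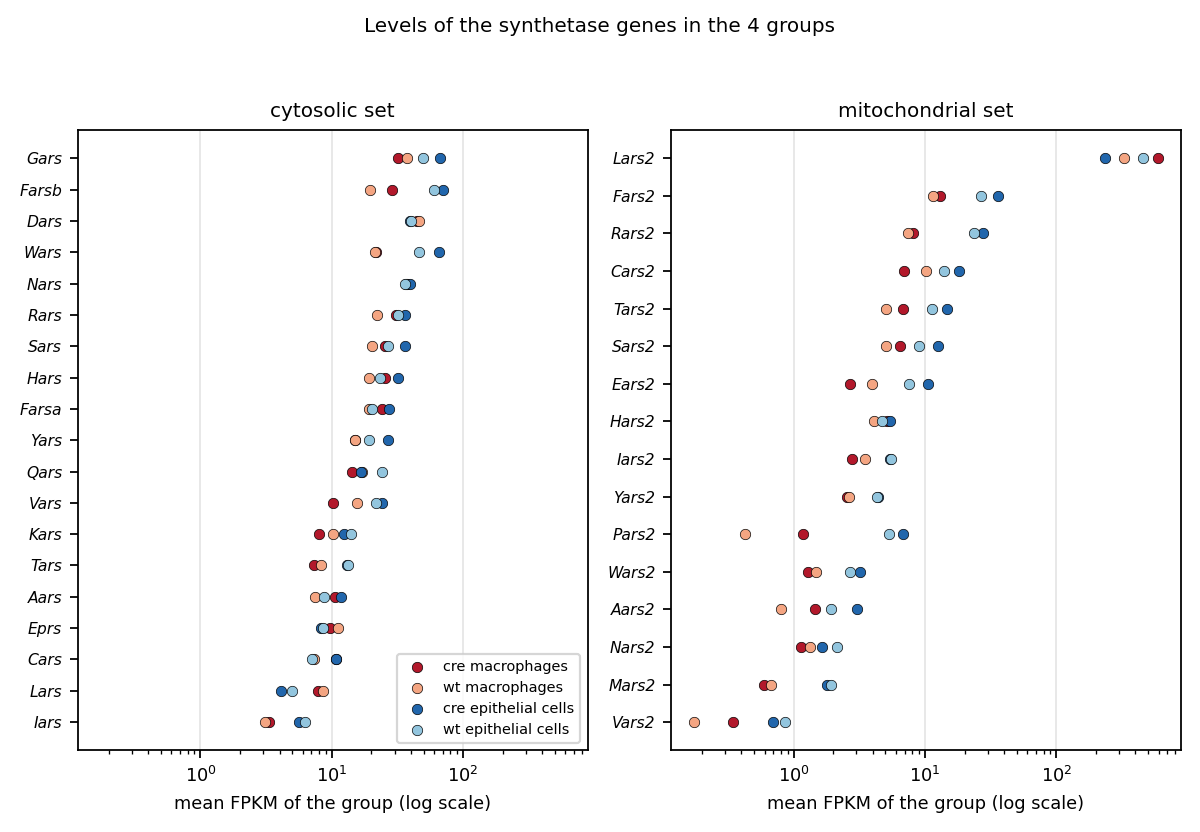
Mean FPKM of each synthetase gene (log axis) in cre macrophages, wt macrophages, cre epithelial cells and wt epithelial cells, cytosolic genes on the left and mitochondrial genes on the right, ordered by the mean of the 4 groups. Lars2, between 234 and 590 FPKM, stands apart from the other mitochondrial genes, which lie between 0.175 and 35.99 FPKM.

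Among the cytosolic genes Gars, the glycyl enzyme, Farsb, the beta subunit of the phenylalanyl enzyme, and Dars, the aspartyl enzyme, were the most abundant over the 4 groups. Gars had 32.0 ± 2.5 FPKM in cre macrophages, 37.6 ± 9.9 in wt macrophages, 66.4 ± 5.6 in cre epithelial cells and 49.2 ± 3.4 in wt epithelial cells (SD, n = 3, 3, 4 and 4, as for all group means below). Farsb stood at 28.9 ± 3.5 FPKM in cre macrophages, 19.5 ± 1.1 in wt macrophages, 70.4 ± 11.5 in cre epithelial cells and 59.5 ± 9.8 in wt epithelial cells. Dars was nearly level, with 44.3 ± 3.1 FPKM in cre macrophages, 46.3 ± 5.0 in wt macrophages, 39.2 ± 3.7 in cre epithelial cells and 40.2 ± 6.5 in wt epithelial cells. Dars was thus the first in order in both macrophage groups and the fourth in both epithelial groups, where Farsb came first. The lowest cytosolic genes by the mean of the 4 groups were Iars, Lars and Cars, which charge isoleucine, leucine and cysteine. Iars had 3.33 ± 0.94 FPKM in cre macrophages, 3.09 ± 1.20 in wt macrophages, 5.64 ± 1.28 in cre epithelial cells and 6.24 ± 1.65 in wt epithelial cells. Lars had 7.84 ± 1.22 FPKM in cre macrophages, 8.56 ± 0.94 in wt macrophages, 4.07 ± 0.75 in cre epithelial cells and 5.004 ± 0.669 in wt epithelial cells. Iars was thus the lowest cytosolic gene in both macrophage groups and Lars in both epithelial groups. Cars had 10.7 ± 3.4 FPKM in cre macrophages, 7.32 ± 0.89 in wt macrophages, 10.8 ± 1.6 in cre epithelial cells and 7.06 ± 1.58 in wt epithelial cells.

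After Lars2 the most abundant mitochondrial genes were Fars2 and Rars2, for phenylalanine and arginine. Fars2 had 12.9 ± 1.7 FPKM in cre macrophages, 11.5 ± 1.6 in wt macrophages, 35.99 ± 3.85 in cre epithelial cells and 26.4 ± 3.8 in wt epithelial cells. By the mean of the 4 groups the lowest were Vars2, Mars2 and Nars2, for valine, methionine and asparagine. Vars2 was the last in each group, whereas by group mean Pars2 (0.422 FPKM) and Aars2 (0.806 FPKM) lay below Nars2 in wt macrophages, and Aars2 (1.91 FPKM) lay below Mars2 and Nars2 in wt epithelial cells. The 3 wt macrophage libraries had 0.284, 0.366 and 1.77 FPKM of Aars2, from 10, 10 and 54 reads. They had 0.573, 1.42 and 1.98 FPKM of Nars2, so that these values overlapped. Vars2 had 0.344 ± 0.12 FPKM in cre macrophages, 0.175 ± 0.056 in wt macrophages, 0.693 ± 0.187 in cre epithelial cells and 0.857 ± 0.171 in wt epithelial cells, which in macrophages came from 16, 8 and 13 reads in cre libraries and 10, 4 and 8 reads in wt libraries. Nars2 had 1.13 ± 0.08 FPKM in cre macrophages, 1.32 ± 0.71 in wt macrophages, 1.65 ± 0.16 in cre epithelial cells and 2.13 ± 0.30 in wt epithelial cells.

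By summed FPKM, the balance of the sets differed between the populations more than between the genotypes. The summed FPKM of the cytosolic genes divided by that of the mitochondrial genes other than Lars2 was 6.05, 6.04 and 6.17 in cre macrophages and 6.36, 5.71 and 5.71 in wt macrophages. In epithelial cells the same ratio was 3.75, 3.50, 3.48 and 3.62 in cre libraries and 4.05, 3.91, 3.82 and 3.47 in wt libraries. By this ratio every macrophage library lay above every epithelial library, and the genotypes overlapped within each population. The ratio of the set medians, Lars2 included, overlapped between the populations. It was between 4.26 and 7.15 in cre macrophages and between 4.73 and 5.42 in wt macrophages. Epithelial libraries had between 3.39 and 4.98 in cre and between 3.39 and 4.75 in wt. Both ratios are given as descriptions, with no test.

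In macrophages, the cells in which Tsc2 was to be deleted, 19 of the 34 tested synthetase genes had a positive difference and 15 a negative one. The median of the 34 was 0.04 on the log2 scale, and single differences ran from -0.59 to 1.49. A median near 0 over both signs does not show that single genes were unchanged. With edgeR, 1 of the 34 tested genes passed an adjusted p of 0.05 (Benjamini-Hochberg over all genes), beside 0.944% of all 14087 genes tested, 0.731% higher and 0.213% lower. It was Lars2, which rose, and whose reads may not all come from its own transcript. None of the 19 cytosolic genes passed, and 5 of them (26.3%) had an unadjusted p under 0.05, beside 12.8% of all genes tested. DESeq2 called none of the cytosolic genes and Lars2 alone of the mitochondrial ones, beside 3.94% of the 12320 genes that it gave an adjusted p. The median log2 difference, cre minus wt, was 0.03 over the cytosolic genes and 0.14 over the 15 mitochondrial genes tested, or 0.05 without Lars2, beside 0.00 over all genes. In these bulk libraries a different number of cells of a type and a different amount of RNA per cell cannot be told apart. The plot of genotype differences gives all members.

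**Figure D2:**
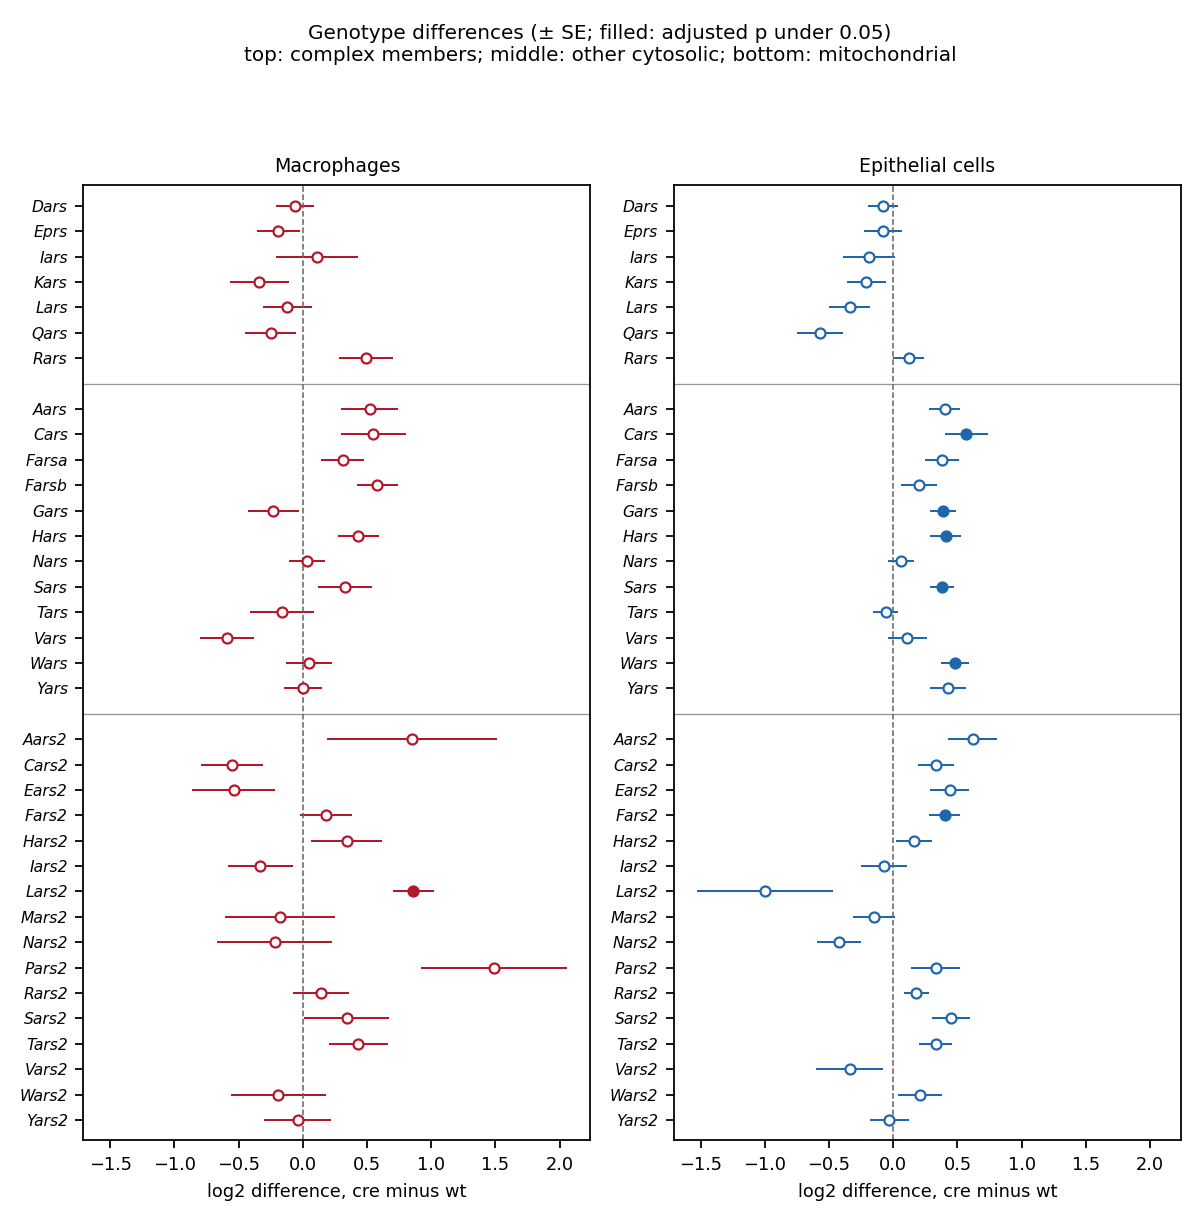
Log2 difference, cre minus wt, of each synthetase gene in macrophages (left) and epithelial cells (right), with the SE as a bar. From top to bottom stand the genes of the multi-synthetase complex, the other cytosolic genes and the mitochondrial genes. Filled points passed an edgeR adjusted p of 0.05, which was Lars2 alone in macrophages and Cars, Gars, Hars, Sars, Wars and Fars2 in epithelial cells. Vars2 was not tested in macrophages.

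The cytosolic genes with the smallest p in macrophages were Farsb, Vars and Hars, which charge phenylalanine, valine and histidine. Farsb had 61.2, 79.5 and 66.3 CPM in cre macrophages (mice 10, 8 and 9), against 48.6, 43.7 and 46.5 CPM in wt macrophages (mice 2, 4 and 6). The 2 groups did not overlap, with a log2 difference of 0.58 (SE 0.16), and the edgeR adjusted p of 0.169 missed the threshold. Vars had 53.2, 32.9 and 51.3 CPM in cre macrophages, against 72.9, 59.5 and 73.9 CPM in wt macrophages. All 3 cre libraries were below all 3 wt libraries, at a log2 difference of -0.59 (SE 0.21, edgeR adjusted p = 0.285). Hars had 54.1, 60.2 and 50.5 CPM in cre macrophages, against 36.3, 44.1 and 42.2 CPM in wt macrophages, again without overlap, at 0.43 (SE 0.16, edgeR adjusted p = 0.311).

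Libraries of the genotypes did not overlap for 5 cytosolic genes with higher cre values (Aars, Farsa, Farsb, Hars and Rars) and for 1 with lower cre values (Vars). Over all genes tested, 10.3% did not overlap with higher cre values and 9.6% with lower ones. Aars, the alanyl enzyme, differed by 0.52 (SE 0.22) and Rars, the arginyl enzyme, by 0.49 (SE 0.21), with edgeR adjusted p of 0.361 and 0.378. Among the mitochondrial genes tested, Lars2 and Pars2, the prolyl enzyme, did not overlap, both higher in cre. Pars2 rested on 21, 22 and 47 reads in cre macrophages and 5, 16 and 13 reads in wt macrophages, and its log2 difference of 1.49 (SE 0.57, edgeR adjusted p = 0.314) missed the threshold. At the other end, Cars2, the mitochondrial cysteinyl enzyme, differed by -0.55 (SE 0.24) and Ears2, the mitochondrial glutamyl enzyme, by -0.54 (SE 0.32), with edgeR adjusted p of 0.38 and 0.531.

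Other genes that work with the synthetases were also tested in macrophages, where 0.944% of all genes passed. At that share few or no calls would fall in lists this short, and nothing particular to the lists is read from their counts. None passed among the 3 scaffold proteins of the complex, the 6 cytosolic elongation factors, the 12 partners of mitochondrial translation, the 4 kinases of eIF2, which sense uncharged transfer RNA and other stresses, and the 22 tested ATF4 targets outside the synthetases, whose median log2 difference was -0.11. The list of ATF4 targets also holds Atf4 itself. Marker levels of several cell types also lay apart between the genotypes, and 2 single markers passed the test. The macrophage markers summed to between 8983 and 12240 CPM in cre macrophages and between 5572 and 7828 CPM in wt macrophages, all 8 with positive differences, of which Cd68 alone rose (log2 1.31, SE 0.19, edgeR adjusted p = 0.022). The 7 stromal markers summed to between 675 and 2197 CPM in cre macrophages and between 2581 and 4543 CPM in wt macrophages, and the 6 dendritic markers to between 512 and 641 CPM in cre macrophages and between 777 and 1587 CPM in wt macrophages. None of the 7 stromal markers passed (smallest edgeR adjusted p = 0.0736), and of the 6 dendritic markers 1 fell, Itgae, at -2.09 (SE 0.28, edgeR adjusted p = 0.0165). The 5 T cell markers summed to between 2.56 and 2.58 CPM in cre macrophages and between 7.68 and 9.60 CPM in wt macrophages, with none of the 3 tested past the threshold (smallest edgeR adjusted p = 0.0677). The sums of the B and plasma cell markers and of the epithelial markers overlapped between the genotypes, and none of these 16 markers passed. No marker of these lists was at 0 in a whole macrophage group, and their part in the values of the synthetase genes was not tested.

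Lars2 (chr9:123366927-123462666, plus strand, GRCm38) had 2621, 2729 and 2119 CPM in cre macrophages, against 1248, 1520 and 1335 CPM in wt macrophages. All 3 cre libraries lay above all 3 wt libraries, 1.82-fold on the fitted scale (log2 0.86, SE 0.16, edgeR adjusted p = 0.0483). In epithelial cells the order of the means was the opposite and the spread far wider. There Lars2 had 947, 674, 2671 and 886 CPM in cre libraries (mice 10, 5, 8 and 9), against 3542, 1874, 3267 and 1647 CPM in wt libraries (mice 2, 4, 6 and 7). The single cre library 8 lay among the wt libraries while the other 3 cre libraries lay below all of them, and the log2 difference was -1.0 (SE 0.53, edgeR adjusted p = 0.282).

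The level of Lars2 was unlike that of any other member. It took between 43.9% and 91.1% of the summed FPKM of the 16 mitochondrial genes in each library. Near the 3' end of its longest transcript a run of 72 bases (positions 3278 to 3349 of 3894) is 98.6% identical to Gm15564, a separate gene, so that a read of 50 bases from it may match both. The ratio of Lars2 to Gm15564 reads was between 3.64 and 4.32 in all 14 libraries, although Lars2 itself ran from 7162 to 28811 reads. Gm15564 differed by 0.83 between the genotypes in macrophages (SE 0.16, edgeR adjusted p = 0.0586) and by -0.98 in epithelial cells (SE 0.49, edgeR adjusted p = 0.255), close to the values of Lars2. The mitochondrially encoded ribosomal RNA gene mt-Rnr2 had the same signs. It differed by 0.73 in macrophages (SE 0.31, edgeR adjusted p = 0.374) and fell by -0.78 in epithelial cells (SE 0.17, edgeR adjusted p = 0.0132). The ribosomal RNA gene CT010467.1 took between 19.1% and 26.3% of all counts in cre macrophages, between 19.5% and 20.6% in wt macrophages, between 7.37% and 26.7% in cre epithelial cells and between 18.5% and 31.8% in wt epithelial cells, and cre epithelial library 8 had the 26.7%. Whether reads of Lars2 come from its messenger RNA was not tested, and the sets are therefore also described without it. The call of Lars2 in macrophages was lost without any 1 of the 6 libraries (log2 0.79 to 0.97, edgeR adjusted p from 0.0521 to 0.293) and with sex as a covariate (log2 0.90, edgeR adjusted p = 0.461).

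**Figure D3:**
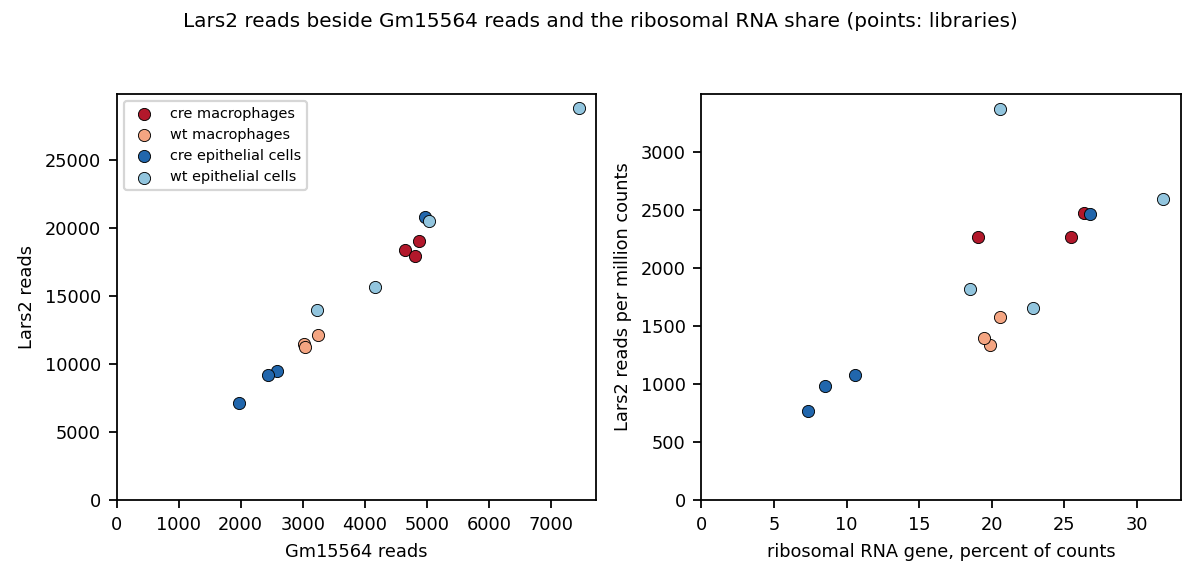
Reads of Lars2 against reads of Gm15564 (left) and Lars2 reads scaled to the total count against the percent of counts in the ribosomal RNA gene (right), 1 point per library in the 4 groups. On the left the 14 libraries lie along 1 line, with ratios between 3.64 and 4.32. On the right 3 of the 4 cre epithelial libraries lie at the low end of both axes.

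In epithelial cells, sorted from mice of the same genotypes, 6 of the 35 synthetase genes rose in cre mice and none fell with edgeR. The 6 were the cytosolic genes Wars, Sars, Gars, Hars and Cars, for tryptophan, serine, glycine, histidine and cysteine, and the mitochondrial gene Fars2, and their fitted rises lay between 1.30-fold and 1.48-fold. Over all 13553 genes tested 9.17% passed, 5.64% higher and 3.53% lower. With DESeq2 12 members were higher and 1 was lower, Qars, the cytosolic glutaminyl gene, beside 13.6% of the 13702 genes that DESeq2 gave an adjusted p. Qars was also lower with no filter on counts (10 members higher), at a filter of 50 counts (5 higher), with sex as a covariate (7 higher) and with voom (12 higher), where Lars2 was lower too. The median log2 difference was 0.12 over the 19 cytosolic genes and 0.20 over the 16 mitochondrial genes, beside -0.05 over all genes.

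Wars (chr12:108860030-108894174, minus strand), which in human cells is also induced by interferon gamma, had 253, 298, 225 and 294 CPM in cre epithelial cells (mice 10, 5, 8 and 9), against 216, 199, 182 and 173 CPM in wt epithelial cells (mice 2, 4, 6 and 7). The lowest cre library, 8, was above the highest wt library, 2, and the log2 difference was 0.48 (SE 0.11, edgeR adjusted p = 0.0183). Sars (chr3:108424865-108445209, minus strand) had 177, 192, 184 and 192 CPM in cre epithelial cells, against 150.3, 150.0, 139 and 132 CPM in wt epithelial cells. The groups were well apart, with a log2 difference of 0.38 (SE 0.09, edgeR adjusted p = 0.0203). Gars (chr6:55038007-55079500, plus strand) had 233, 231, 196 and 239 CPM in cre epithelial cells, against 175, 185, 156 and 171 CPM in wt epithelial cells. The groups did not overlap, although cre library 8 was near the highest wt library, and the log2 difference was 0.39 (SE 0.10, edgeR adjusted p = 0.0254).

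Hars (chr18:36766528-36783205, minus strand) had 94.1, 82.3, 82.8 and 99.1 CPM in cre epithelial cells, against 78.9, 64.9, 63.1 and 62.3 CPM in wt epithelial cells. Again no wt library reached a cre library, at a log2 difference of 0.41 (SE 0.12, edgeR adjusted p = 0.0406). Cars (chr7:143557230-143600090, minus strand) had 44.2, 54.9, 42.4 and 56.1 CPM in cre epithelial cells, against 40.1, 39.7, 26.3 and 27.2 CPM in wt epithelial cells. It differed by 0.57 (SE 0.17, edgeR adjusted p = 0.0459), with cre libraries 8 and 10 close to wt libraries 2 and 4. Fars2 (chr13:36117412-36726280, plus strand) had 115, 128, 104.8 and 133 CPM in cre epithelial cells, against 83.6, 96.8, 77.7 and 105.3 CPM in wt epithelial cells. Here wt library 7 reached cre library 8, and the log2 difference was 0.40 (SE 0.12, edgeR adjusted p = 0.0485). Since the libraries keep no strand, reads in the 195 exon bases that Hars shares with Hars2 on the opposite strand, in the 115 that Fars2 shares with Lyrm4 and in the 501 that it shares with Nrn1 cannot be told apart.

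**Figure D4:**
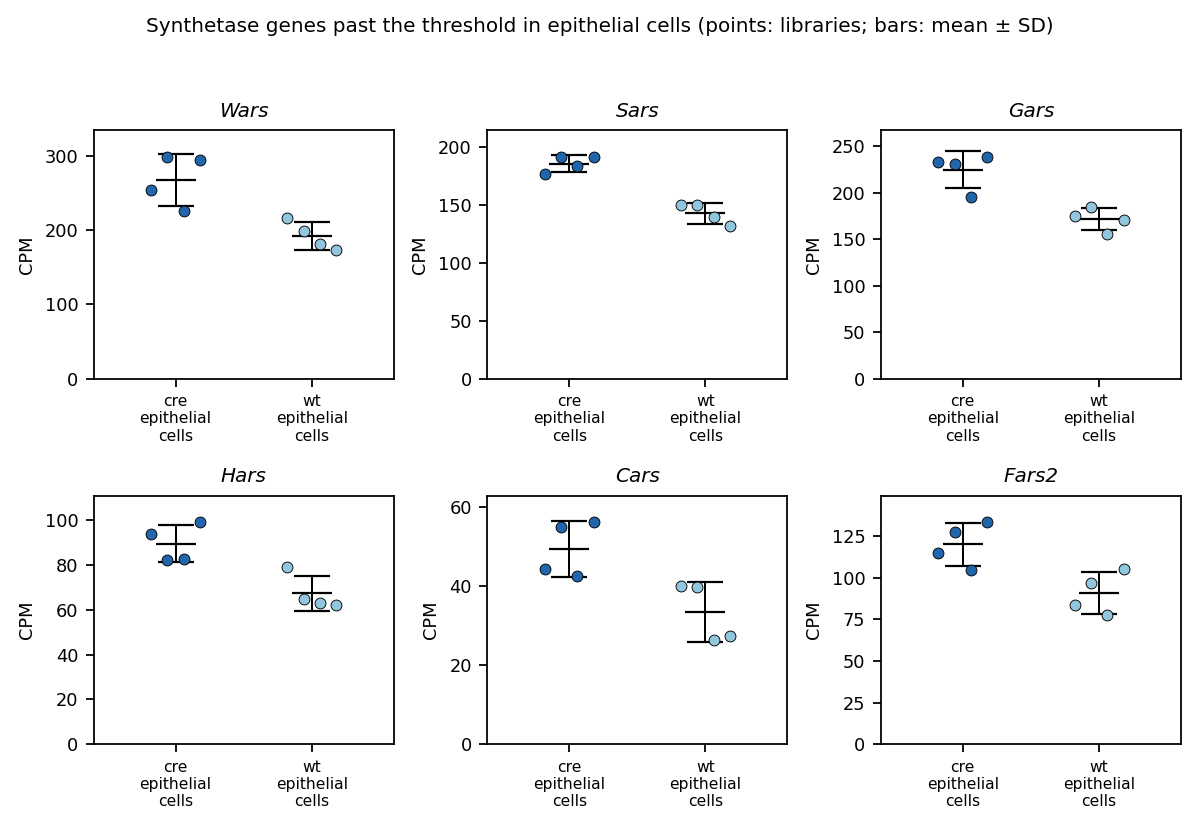
CPM of Wars, Sars, Gars, Hars, Cars and Fars2 in the 4 cre epithelial libraries (left in each panel) and the 4 wt epithelial libraries (right), with the mean and SD as bars and axes from 0. The groups do not overlap except for Fars2, where the lowest cre library lies at 104.8 CPM and the highest wt library at 105.3 CPM.

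The differences of the cytosolic genes had both signs in epithelial cells. Of the 7 analysed members of the multi-synthetase complex 6 had a negative difference there, with a median of -0.19. None of the 7 passed the edgeR test, where 9.17% of all genes did, so that the lack of a call says little about the complex. The 12 cytosolic genes outside the complex had a median of 0.39, 11 of them positive, and all 5 cytosolic calls were among them. Farthest down in the complex was Qars, at -0.57 (SE 0.18, edgeR adjusted p = 0.0607), and the single positive member was Rars at 0.12 (SE 0.12, edgeR adjusted p = 0.532). Qars had 60.6, 57.3, 94.7 and 53.0 CPM in cre epithelial cells, against 76.7, 96.7, 97.8 and 123 CPM in wt epithelial cells, so that cre library 8 lay among the wt libraries and the other 3 below them. The 3 scaffold genes of the complex did not pass either, at a median of -0.15. In macrophages the complex members had a median of -0.12 and the other cytosolic genes one of 0.18, with no call in either. These are counts and medians of a list, and the difference between the lists was not tested.

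Outside the complex, Aars and Yars, the alanyl and tyrosyl enzymes, narrowly missed the threshold, at 0.40 (SE 0.12, edgeR adjusted p = 0.0549) and 0.43 (SE 0.14, edgeR adjusted p = 0.0658). Farsa and Farsb, the subunits of 1 phenylalanyl enzyme, differed by 0.38 (SE 0.13) and 0.20 (SE 0.14), with edgeR adjusted p of 0.0822 and 0.37. Nars, Tars and Vars, for asparagine, threonine and valine, lay near 0, between -0.06 and 0.11. Of the mitochondrial genes, Aars2 was next in order of p after Fars2, at 0.62 (SE 0.19, edgeR adjusted p = 0.0503), with 14.6, 14.03, 10.8 and 18.1 CPM in cre epithelial cells and 8.97, 9.58, 8.60 and 10.3 CPM in wt epithelial cells. Sars2 and Ears2 followed at 0.45 (SE 0.15) and 0.44 (SE 0.15), with edgeR adjusted p of 0.0652 and 0.0698. Nars2 was the 1 mitochondrial gene whose cre libraries all lay below the wt libraries, at -0.42 (SE 0.17, edgeR adjusted p = 0.133). In all, cre and wt libraries did not overlap for 6 cytosolic genes, all higher in cre, and for 2 mitochondrial genes, Aars2 higher and Nars2 lower, where 9.92% of all genes tested did so with higher cre values and 6.68% with lower ones.

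Of the 11 analysed synthetase genes listed as ATF4 targets, 4 rose in epithelial cells (Wars, Sars, Gars and Cars), with a median of 0.38 over the 11, and of the other 8 cytosolic genes 1 rose (Hars), with a median of 0.12. The list of ATF4 targets that are not synthetases also holds Atf4 itself, at 0.12 in epithelial cells. Among its 20 tested genes 2 rose and none fell, with 17 positive differences and a median of 0.29. They were Chac1, a glutathione-degrading enzyme, at 1.42 (SE 0.34, edgeR adjusted p = 0.0215), and Slc3a2, the heavy chain of amino acid transporters, at 0.45 (SE 0.10, edgeR adjusted p = 0.0182). Chac1 had 2.20, 3.30, 4.87 and 3.65 CPM in cre epithelial cells, against 1.48, 0.958, 1.59 and 1.18 CPM in wt epithelial cells. Of the cytosolic elongation factors 1 of 6 rose, Eef1d at 0.39 (SE 0.11, edgeR adjusted p = 0.0463), and of the 12 partners of mitochondrial translation 1 rose, the elongation factor Tufm at 0.45 (SE 0.09, edgeR adjusted p = 0.0109). The counts of these 3 lists rest on 1 or 2 genes each, 10%, 16.7% and 8.33% of their members, where 5.64% of all genes rose, and nothing particular to the lists is read from them.

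The control region just before a gene is shown for Gars and Sars, since both rose in epithelial cells and only the first holds the motif at which ATF4 and its C/EBP partners are known to bind. This motif, the core of the C/EBP-ATF response element, was searched as TGATGNAA on both strands, N being any base, in the 300 bases from 250 before to 50 after each gene start of the RefSeq table (GRCm38.p6). The table held 26 of the 35 genes, and Cars, Hars, Lars, Nars, Rars, Vars, Wars, Hars2 and Pars2 were not found in it. The motif was present in 5 of 12 cytosolic genes (41.7%), in 0 of 14 mitochondrial genes and in 4.51% of all 27025 genes of the table. Below are the 250 bases before the start of each, 5' to 3' on the strand of the gene, with the motif in capitals.
Gars, chr6:55037751-55038000, plus strand: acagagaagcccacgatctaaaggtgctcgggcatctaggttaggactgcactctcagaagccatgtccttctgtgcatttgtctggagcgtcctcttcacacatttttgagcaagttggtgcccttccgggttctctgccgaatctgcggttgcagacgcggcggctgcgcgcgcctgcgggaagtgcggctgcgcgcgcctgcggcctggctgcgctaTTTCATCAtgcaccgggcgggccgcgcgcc
Sars, chr3:108445260-108445509, minus strand: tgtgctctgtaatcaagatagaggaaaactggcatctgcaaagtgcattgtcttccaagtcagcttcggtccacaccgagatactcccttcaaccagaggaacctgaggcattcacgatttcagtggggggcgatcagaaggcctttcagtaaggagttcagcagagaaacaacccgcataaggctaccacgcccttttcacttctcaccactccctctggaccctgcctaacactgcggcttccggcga

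In Gars the motif lies 30 to 23 bases before the start and reads as TTTCATCA, since the motif is on the opposite strand there. The other 4 carriers are Aars, Iars, Tars and Yars, and the 30-base windows around the motif of Iars, Tars and Yars follow in the same notation.
Iars, chr13:49682126-49682155, plus strand: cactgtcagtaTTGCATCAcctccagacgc
Tars, chr15:11399655-11399684, minus strand: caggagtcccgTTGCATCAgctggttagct
Yars, chr4:129189895-129189924, plus strand: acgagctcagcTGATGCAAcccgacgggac

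The 5 carriers did not share 1 direction in epithelial cells: Gars rose, Aars and Yars had differences of 0.40 and 0.43 that missed the threshold, and Tars and Iars lay at -0.06 and -0.19. Another motif, the E-box CACGTG, was found in 4 of 12 cytosolic genes (33.3%), 3 of which (Aars, Iars and Tars) also hold the first motif, in 1 of 14 mitochondrial genes (7.14%) and in 8.09% of all genes of the table. The E-box reads the same on both strands. A match of letters is a description of the sequence and not a binding site.

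The epithelial genotypes also differed in measures of the libraries. The ribosomal RNA share was between 7.37% and 10.6% in cre epithelial libraries 5, 9 and 10 and 26.7% in cre library 8, against between 18.5% and 31.8% in wt epithelial cells, and mitochondrially encoded genes took between 10.4% and 10.7% of counts in cre libraries and between 11.6% and 18.1% in wt libraries. With the ribosomal RNA share as a covariate none of the 35 genes and none of all genes tested passed with edgeR, and the 6 differences stayed positive, between 0.21 and 0.34. Males alone and 1 fit of all 14 libraries gave no call among the 35 genes either. Without cre library 8 there were 9 cytosolic and 4 mitochondrial calls, all higher except Qars and Lars2, without cre library 5 or 9 there were none in either set, and without cre library 10 there were 2 cytosolic calls and no mitochondrial one. Of the 8 epithelial markers, Krt8 (0.62, SE 0.10, edgeR adjusted p = 0.00648) and Krt18 (0.42, SE 0.09, edgeR adjusted p = 0.0131) rose in cre epithelial cells. Cdh1 fell (-0.36, SE 0.10, edgeR adjusted p = 0.0377). The 8 summed to between 10540 and 11130 CPM in cre and between 8165 and 11320 CPM in wt. Of 12 genes of cell division Top2a alone passed, and fell (-0.58, SE 0.17, edgeR adjusted p = 0.0458). Of all genes tested 5.64% rose and 3.53% fell. Of the markers of other cells, 2 fell in cre epithelial cells, C1qa of macrophages at -0.71 (SE 0.21, edgeR adjusted p = 0.0498) and Col3a1 of stromal cells at -1.67 (SE 0.46, edgeR adjusted p = 0.0374). The 8 macrophage markers summed to between 27.3 and 61.1 CPM in cre epithelial cells and between 41.1 and 93.5 CPM in wt epithelial cells, which overlapped, with all 7 tested markers negative. The 7 stromal markers, of which Col3a1 alone had enough reads to be tested, summed to between 1.60 and 2.73 CPM in cre epithelial cells and between 4.19 and 8.12 CPM in wt epithelial cells, without overlap. The sums of the B and plasma cell markers (between 446 and 566 CPM in cre, between 425 and 599 CPM in wt), of the T cell markers (between 1.63 and 2.70 CPM in cre, between 1.68 and 4.72 CPM in wt) and of the dendritic markers (between 1.15 and 4.23 CPM in cre, between 2.75 and 5.58 CPM in wt) overlapped, and none of their tested markers passed. Most of the B and plasma cell sum was Xbp1, at between 381 and 441 CPM in cre and between 339 and 414 CPM in wt. Lyz2 had 17.9, 10.8, 15.9 and 12.2 CPM in cre epithelial cells, against 29.6, 27.4, 45.9 and 46.7 CPM in wt epithelial cells, and fell by 1.40 on the log2 scale (SE 0.21, edgeR adjusted p = 0.00648). Clec9a, a dendritic marker, was at 0 in all cre epithelial libraries, and Mzb1, a plasma cell marker, in all wt epithelial libraries. The part of these measures in the values of the synthetase genes was not tested beyond the covariate.

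Whether the genotypes differed by unequal amounts in macrophages and epithelial cells was tested directly as the difference of the genotype effects, macrophage minus epithelial. None of the 35 genes passed with edgeR, beside 0.702% of all 16375 genes tested, 0.47% higher and 0.232% lower, and 8 of them (22.9%) had an unadjusted p under 0.05, beside 15.3% of all genes. DESeq2 called 2 mitochondrial genes, beside 504 (4.25%) of the 11846 genes that it gave an adjusted p. The genes with the smallest p were Ears2, Cars2, Lars2 and Gars. Ears2 had 7.69, 4.55 and 5.57 CPM in cre macrophages, against 6.96, 10.1 and 9.01 CPM in wt macrophages, and 29.9, 25.1, 34.0 and 33.8 CPM in cre epithelial cells, against 25.7, 22.9, 22.1 and 19.9 CPM in wt epithelial cells. Cre was thus mostly the lower in macrophages and mostly the higher in epithelial cells, with overlap in both, and the difference of effects was -1.0 (SE 0.29, edgeR adjusted p = 0.123). Ears2 shares 89 exon bases with Ubfd1 on the opposite strand. Its macrophage values rested on 54, 30 and 50 reads in cre libraries and 68, 76 and 76 reads in wt libraries. Cars2 had 11.8, 16.2 and 14.8 CPM in cre macrophages, against 22.7, 16.1 and 23.8 CPM in wt macrophages, and 47.0, 54.1, 42.0 and 51.6 CPM in cre epithelial cells, against 33.9, 48.6, 35.7 and 36.4 CPM in wt epithelial cells. The difference of effects was -0.91 (SE 0.26, edgeR adjusted p = 0.124), and 422 exon bases that Cars2 shares with Naxd on the opposite strand limit it. With DESeq2, Ears2 (-1.06, adjusted p = 0.0216) and Cars2 (-0.97, adjusted p = 0.0226) were the 2 genes past the threshold.

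Gars, which rose in epithelial cells, had 78.1, 91.7 and 77.7 CPM in cre macrophages, against 126, 80.4 and 83.5 CPM in wt macrophages. The groups overlapped, and the difference of effects was -0.65 (SE 0.22, edgeR adjusted p = 0.191). Wars, the epithelial gene with the smallest p, had 74.0, 55.4 and 73.7 CPM in cre macrophages, against 77.1, 58.3 and 61.3 CPM in wt macrophages, and its difference of effects was -0.46 (SE 0.22, edgeR adjusted p = 0.326). For Sars, Hars, Cars and Fars2 the difference of effects was between -0.26 and -0.01, with edgeR adjusted p between 0.626 and 1. The rise of the 6 genes in epithelial cells is therefore not shown to be absent in macrophages. For Lars2 the difference of effects was 1.84 (SE 0.56, edgeR adjusted p = 0.156), and without cre epithelial library 8 it was 2.47 (edgeR adjusted p = 0.00647), the 1 case in this comparison in which leaving out a library brought a member past the threshold. Of the ATF4 targets outside the synthetases, Phgdh, the first enzyme of serine synthesis, differed between the populations in its genotype effect (-2.13, SE 0.33, edgeR adjusted p = 0.0085). It was low in macrophages, with 2.1, 0.76 and 2.1 CPM in cre and 7.2, 6.2 and 6.9 CPM in wt libraries. The difference there missed the threshold (-1.99, SE 0.44, edgeR adjusted p = 0.0836). In epithelial cells Phgdh had a mean of 38.2 CPM in cre and 35.2 CPM in wt (0.12, SE 0.13, edgeR adjusted p = 0.598).

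Between the cell populations the synthetase genes differed far more, and mainly the mitochondrial ones. Over both genotypes, 13 of the 35 genes were at least 2-fold lower in macrophages than in epithelial cells and passed an edgeR adjusted p of 0.05, and none was 2-fold higher. Of all 16375 genes tested 52.2% passed both limits, 22.5% lower and 29.7% higher. The 13 were 11 of the 16 mitochondrial genes and 2 of the 19 cytosolic genes, Farsb and Wars. These counts moved with the method: 14 mitochondrial and 8 cytosolic genes were lower with the GC and length trend removed, and 5 mitochondrial and 2 cytosolic genes with limma on log2(FPKM + 1). The median log2 difference, macrophage minus epithelial, was -1.26 over the mitochondrial genes other than Lars2, all 15 negative, -0.49 over the cytosolic genes and 0.07 over all genes. With no limit on the fold, 27 members were lower and 1 was higher, the cytosolic leucyl gene Lars at 0.75 (SE 0.12, edgeR adjusted p = 3.15e-05), beside 34.3% and 39.4% of all genes tested.

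**Figure D5:**
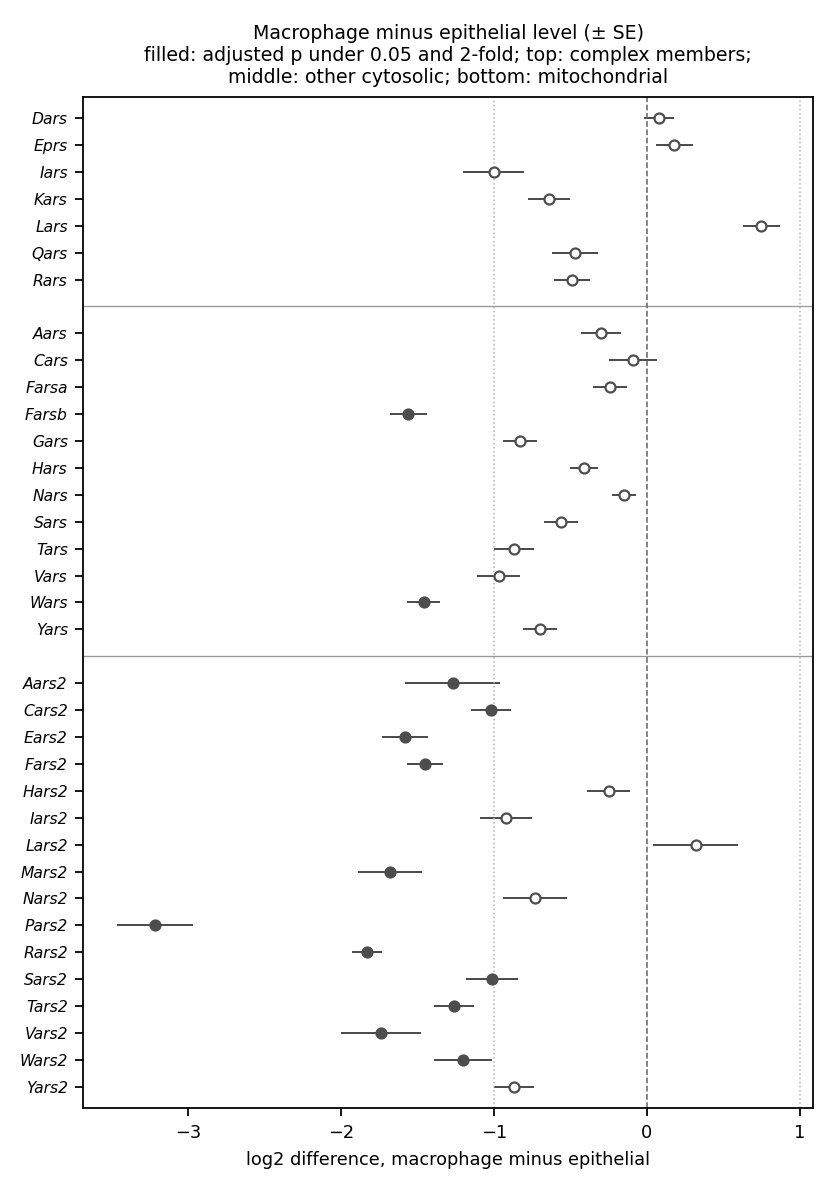
Log2 difference, macrophage minus epithelial, of each synthetase gene over both genotypes, with the SE as a bar. From top to bottom stand the complex members, the other cytosolic genes and the mitochondrial genes, and filled points passed an edgeR adjusted p of 0.05 and a 2-fold difference (dotted lines at -1 and 1). Most mitochondrial genes lie left of -1 and most cytosolic genes between -1 and 0.

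The 5 farthest apart were mitochondrial. Pars2, the prolyl enzyme, had 0.912, 0.992 and 1.60 FPKM in cre macrophages and 0.156, 0.644 and 0.467 FPKM in wt macrophages, against 5.71, 9.64, 5.38 and 6.67 FPKM in cre epithelial cells and 5.66, 4.45, 4.70 and 6.33 FPKM in wt epithelial cells. No macrophage library came near an epithelial one, and the log2 difference was -3.22 (SE 0.25, edgeR adjusted p = 4.2e-09). Rars2, the arginyl enzyme, had 7.65, 8.46 and 8.30 FPKM in cre macrophages and 7.79, 8.41 and 5.98 FPKM in wt macrophages, against 28.1, 27.0, 28.6 and 26.4 FPKM in cre epithelial cells and 25.7, 23.1, 21.7 and 23.4 FPKM in wt epithelial cells. Its difference was -1.83 (SE 0.10, edgeR adjusted p = 6.5e-11), with little spread in any group. Vars2 and Mars2, both among the lowest genes, differed by -1.74 (SE 0.26, edgeR adjusted p = 1.41e-05) and -1.68 (SE 0.21, edgeR adjusted p = 2.22e-06). Mars2 had between 0.404 and 1.16 FPKM in the 6 macrophage libraries and between 1.60 and 2.56 FPKM in the 8 epithelial libraries. Ears2 had between 2.02 and 4.56 FPKM in macrophages and between 6.72 and 11.7 FPKM in epithelial cells, at -1.58 (SE 0.15, edgeR adjusted p = 5.76e-08).

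Of the cytosolic genes, Farsb had 25.9, 32.8 and 28.2 FPKM in cre macrophages and 20.5, 18.4 and 19.5 FPKM in wt macrophages, against 76.7, 74.3, 53.2 and 77.3 FPKM in cre epithelial cells and 67.1, 66.9, 46.5 and 57.4 FPKM in wt epithelial cells. It differed by -1.56 (SE 0.12, edgeR adjusted p = 4.99e-09), whereas Farsa, the other subunit of the same enzyme, differed by -0.24 (SE 0.11, edgeR adjusted p = 0.0586). Farsb shares 248 exon bases with Sgpp2 on the opposite strand, whose reads cannot be told apart without strand. Wars had between 17.5 and 24.9 FPKM in the 6 macrophage libraries and between 41.7 and 73.3 FPKM in the 8 epithelial libraries, at -1.46 (SE 0.11, edgeR adjusted p = 4.05e-09). The list of interferon gamma targets, to which Wars belongs in human cells, went the other way: 13 of its 14 tested genes were at least 2-fold higher in macrophages, where 29.7% of all genes were, with a median of 3.59. Of the 7 complex members none passed the 2-fold limit, Iars coming nearest at -1.0 (SE 0.20, edgeR adjusted p = 0.000339), just short of it before rounding.

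Of 12 partners of mitochondrial translation 5 (41.7%) were at least 2-fold lower in macrophages, where 22.5% of all genes were, with a median of -0.65, among them the elongation factors Tufm (-2.41, SE 0.12, edgeR adjusted p = 1.46e-11) and Tsfm (-1.45, SE 0.14, edgeR adjusted p = 5.61e-08). Of the 12 genes of cell division 7 (58.3%) were lower, with a median of -1.26, and of the 6 cytosolic elongation factors 1 was lower, Eef1g at -1.14 (SE 0.10, edgeR adjusted p = 1.25e-08). The ATF4 targets outside the synthetases went both ways, 9 higher (40.9%) and 5 lower (22.7%) of 22, beside 29.7% and 22.5% of all genes. Atf4 itself, at 1.96, is counted among the 9 higher. The counts of the elongation factors (16.7%) and of the lower ATF4 targets are near the share of all genes. Within the cre libraries alone 4 cytosolic and 12 mitochondrial genes were at least 2-fold lower in macrophages, and Lars2 was at least 2-fold higher there (edgeR adjusted p = 0.0125), beside 21.7% of all genes lower and 30.9% higher. Within the wt libraries alone 3 cytosolic and 8 mitochondrial genes were at least 2-fold lower in macrophages, beside 21.5% of all genes lower and 27.4% higher. The comparison holds 2 separately sorted populations, and cell type, RNA content and sorting cannot be told apart in it.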

How the data were processed

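The libraries (Smart-seq2 cDNA without strand, Nextera XT) gave single reads of 50 bases, per the labels' protocols. STAR 2.5.2b, Picard 2.19.2, DESeq2 1.24.0 and GRCm38 (mm10) are named in the submitters' processing notes without roles, and the read counter is not given in the sources used here. The authors deposited raw counts per gene and FPKM. Their FPKM equal the count divided by 1 value per gene and 1 factor per library (relative deviation up to 6.66e-16 over 13471 genes). Groups, numbers and sexes came from the labels, and no 2 libraries of a group were copies (chi-square per degree of freedom of at least 6.2).

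Tests on the counts used edgeR 4.0.16 with R 4.3.3 (TMM, filterByExpr at 10 counts, robust quasi-likelihood F test, Benjamini-Hochberg over all genes, adjusted p under 0.05), after a test on simulated data. Genotypes were compared within each population on its own. The difference of effects and the difference between populations, which also needed 2-fold, were fitted on all 14 libraries. SE is the log2 difference divided by the root of F, and a CPM is a count relative to the library size after TMM within a population. DESeq2 1.42.0, limma 3.58.1 on log2(FPKM + 1) or log2(FPKM + 0.1), voom, other filters, covariates, a GC and length trend (GENCODE M21, which holds 55227 of the 55487 gene IDs) and leaving out libraries were the alternatives. Exon overlaps and similar transcripts came from the same annotation and promoters from RefSeq, of which 1 gene's sequence is not reported here. The members, the gene lists and the rule for named genes (members past the threshold, the 4 smallest p, the 5 largest differences between populations, the 3 highest and 3 lowest levels) were chosen with earlier results of these data known. Same-numbered macrophage and epithelial libraries deviated together weakly or not at all (r from -0.032 to 0.086, other pairs from -0.086 to 0.049). Each wt macrophage library had its highest r with the epithelial library of its number (0.067, 0.028 and 0.086), and no cre macrophage library did. The labels do not state that a number is an animal, and libraries were not paired. Nothing states separate cultures or sorts, so p-values measure the spread between these libraries.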

Additional observations from a re-analysis of the deposited data

Results flagged for a closer look

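In 5 of the 70 groups of 4 epithelial values (35 genes in cre and in wt cells), 1 library stood apart from the other 3 beyond Dixon's 95% critical value of 0.829, and chance alone flags about 1 group in 20. Cre epithelial library 8 was the one that stood apart for 3 genes. It had 165 CPM of Farsb, where the other cre libraries had between 232 and 242 CPM. It had 76.4 CPM of Iars2, the mitochondrial isoleucyl gene, where the others had between 42.9 and 43.8 CPM, and Iars2 shares 2034 exon bases with Rab3gap2 on the opposite strand. It had 2671 CPM of Lars2, where the others had between 674 and 947 CPM. The same library had a ribosomal RNA share of 26.7%, against at most 10.6% in the other cre epithelial libraries, and the part of that share in these values was not tested. Among wt epithelial libraries, number 2 had 78.9 CPM of Hars, where the others had between 62.2 and 64.9 CPM, and number 4 had 48.6 CPM of Cars2, where the others had between 33.9 and 36.4 CPM.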

How the results depend on the processing

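No called gene among the members named here changed its direction under any alternative, and the cause of the moves below was not tested. The 6 epithelial genes missed the threshold in 55 of their alternative values and passed it in 71. For epithelial cells the calls (5 cytosolic and 1 mitochondrial) were 9 and 4 with DESeq2, 9 and 2 with no filter, 9 and 5 with voom, 8 and 0 with sex as a covariate (1 of the cytosolic genes, Qars, lower in each of these 4, and Lars2 lower with voom), 6 and 0 at a filter of 50 counts (Qars lower), 2 and 1 with the GC and length trend removed, 1 and 0 with limma on log2(FPKM + 1) without a filter, and 0 and 0 in males only, with the ribosomal RNA share as a covariate and in 1 fit of all 14 libraries. Mitochondrial calls there were 2 with RLE size factors and 3 with limma at either pseudocount, and leaving out 1 library gave between 0 and 9 cytosolic and between 0 and 4 mitochondrial calls, with 3 cytosolic calls without wt library 6 or 7, no mitochondrial call without wt library 2, 4 or 6 and 2 without wt library 7. In macrophages the 1 mitochondrial call, Lars2, became 0 with RLE size factors, limma at a pseudocount of 0.1 or without a filter, sex, males only, the ribosomal RNA share, the GC and length trend, 1 fit of all libraries, or any 1 library left out (between 0 and 0 calls). For the difference of effects mitochondrial calls were 2 with DESeq2 and between 0 and 1 with 1 library left out. Between the populations (2 cytosolic and 11 mitochondrial calls) cytosolic calls were 5 in males only, 8 with the GC and length trend removed, 4 in cre libraries alone and 14 with no limit on the fold, mitochondrial calls were 5 with limma on log2(FPKM + 1) with or without a filter, and with 1 library left out they ran between 2 and 4 (4 without cre macrophage library 9 or 10, wt macrophage library 2 or cre epithelial library 5 or 10) and between 9 and 12. Removing the GC and length trend shifted the median of all genes between the populations to -0.31, beside -0.89 for the cytosolic and -1.68 for the mitochondrial genes. With mouse number as a replicate block the difference of effects gave 0 and 0 calls and the comparison of populations 2 and 11, and within a genotype comparison no number is shared. Depth limits Vars2, Pars2, Mars2, Aars2, Nars2, Wars2 and Ears2 in macrophages, where some libraries held fewer than 50 reads.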
